A study of Mus musculus with 11 samples.

Results

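The insulin-like growth factor (IGF) axis was read as 10 genes in primary lung fibroblasts of mice lacking cGAS, the cytosolic DNA sensor: the ligand Igf1, its receptor Igf1r, the binding proteins Igfbp2 to Igfbp7, the protease Pappa and its inhibitor Stc2. They were taken by symbol, 10 of the 56980 genes in the count tables, and all 10 passed the filter on low counts. There were 6 cGAS KO libraries (females 1 to 3, males 1 to 3) and 5 WT libraries (females 1 and 2, males 1 to 3). All cultures were grown at 37 °C in 5% CO2 and 5% O2 with 15% serum. The sources used here do not state the knockout allele, the strain or the age. Serum itself carries IGFs and binding proteins, so transcripts describe what the cells made and not what reached them. The labels' extraction text speaks of pulverized tissue rather than cultured cells.

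IGF1 is a secreted hormone that binds the receptor tyrosine kinase IGF1R and signals through IRS adapters, PI3-kinase and AKT to growth and survival. IGF binding proteins hold most of the ligand outside cells. The metalloprotease PAPP-A cleaves IGFBP4 and so releases IGF at the cell surface, and stanniocalcin-2 blocks PAPP-A. In lung, fibroblasts and macrophages are both known as sources of IGF1.

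Total counts ran from 27261958 to 48039328 per library. Cgas, the targeted gene, was at 1.63 to 2.27 CPM (counts scaled to library size, with TMM factors) in KO libraries and 5.89 to 9.85 CPM in WT libraries, without overlap (log2 −1.98, SE 0.15, edgeR adjusted p = 0.000954). WT female 2 stood apart: its median correlation with the other libraries was 0.960, against 0.978 to 0.986 elsewhere. The names of female libraries are styled unlike those of male ones, so sex and library set cannot be told apart. All 10 fibroblast markers examined were measured, summing to 37823 to 52165 CPM in KO and 40631 to 54289 CPM in WT. Of 13 leukocyte and macrophage markers 11 were tested, 10 had a positive fold change, and 8 had an unadjusted p under 0.05, against 17.2% of all entries (none past adjustment). Their sum was 7329.9 to 12791 CPM in KO and 5295 to 7693 CPM in WT. None was at 0 in every library, although the T cell gene Cd3e reached no more than 0.0222 CPM. The count at an unadjusted p under 0.05 was 3 of 9 epithelial, 2 of 8 endothelial, 1 of 10 pericyte and smooth muscle, 0 of 10 fibroblast and 0 of 5 mesothelial markers. Endothelial markers (8 tested, 3 positive) summed to 54.0 to 104 CPM in KO and 39.0 to 86.8 CPM in WT, and epithelial ones (9 of 11 tested, 0 positive) to 11.9 to 38.8 CPM in KO and 23.3 to 58.7 CPM in WT. Pericyte and smooth muscle markers (10 tested, 2 positive) summed to 1070 to 3080.4 CPM in KO and 1530.1 to 4041 CPM in WT. In bulk cultures, fewer cells of a type and less RNA per cell cannot be told apart.

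In 3 of the 10 members, Igf1, Igf1r and Igfbp4, KO and WT libraries did not overlap in at least 1 sex, against 45% of all entries tested, so the share of members is below the background. These 3 are shown to put sequence beside the genes described most closely, by the 150 bases before their start (RefSeq, build GRCm38.p6, 5′ to 3′ on the gene's strand). Capitals mark matches on either strand to TATAAA (the TATA box), GGGCGG (the GC box bound by Sp1) or CCAAT. No matches overlapped each other.
Igf1, chr10:87860961-87861110, plus strand: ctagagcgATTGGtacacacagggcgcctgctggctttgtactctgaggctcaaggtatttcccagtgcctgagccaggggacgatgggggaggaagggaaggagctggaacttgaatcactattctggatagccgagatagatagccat
Igf1r, chr7:67952107-67952256, plus strand: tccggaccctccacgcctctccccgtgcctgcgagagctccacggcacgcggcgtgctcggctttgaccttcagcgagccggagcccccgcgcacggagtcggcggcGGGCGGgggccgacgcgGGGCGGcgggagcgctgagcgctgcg
Igfbp4, chr11:99041094-99041243, plus strand: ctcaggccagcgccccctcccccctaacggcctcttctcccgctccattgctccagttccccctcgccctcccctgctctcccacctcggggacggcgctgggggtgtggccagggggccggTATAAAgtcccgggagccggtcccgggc
The Igf1r window was 78.7% G or C with 26 CpG dinucleotides and 2 GC boxes, and the Igf1 window 54.0% with 4 CpG dinucleotides and 1 inverted CCAAT. The Igfbp4 window held the TATA box. Over 32851 promoters of the same length, 7.57% held TATAAA, 28.6% GGGCGG and 24.5% CCAAT. RefSeq promoters were matched for 9 of the 10 members.

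Over both sexes Igf1 and Igfbp4 had the largest positive fold changes among the members and Igfbp2, Pappa and Igfbp7 the largest negative ones, but no member passed the threshold. With edgeR 0 of 10 members were called, against 0.00448% of the 22298 entries tested (1 entry, Cgas). At an unadjusted p under 0.05 there were 3, against 17.2% of all entries. Of these Igf1 and Igfbp4 were higher, against 10.5% of entries, and Pappa lower, against 6.64%. DESeq2 called 0 of 10 and limma-voom with sample quality weights 1, Igf1, against 3.25% and 12.5% of entries. The median log2 fold change was −0.0053 over the members and −0.0087 over all entries.

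**Figure D1:**
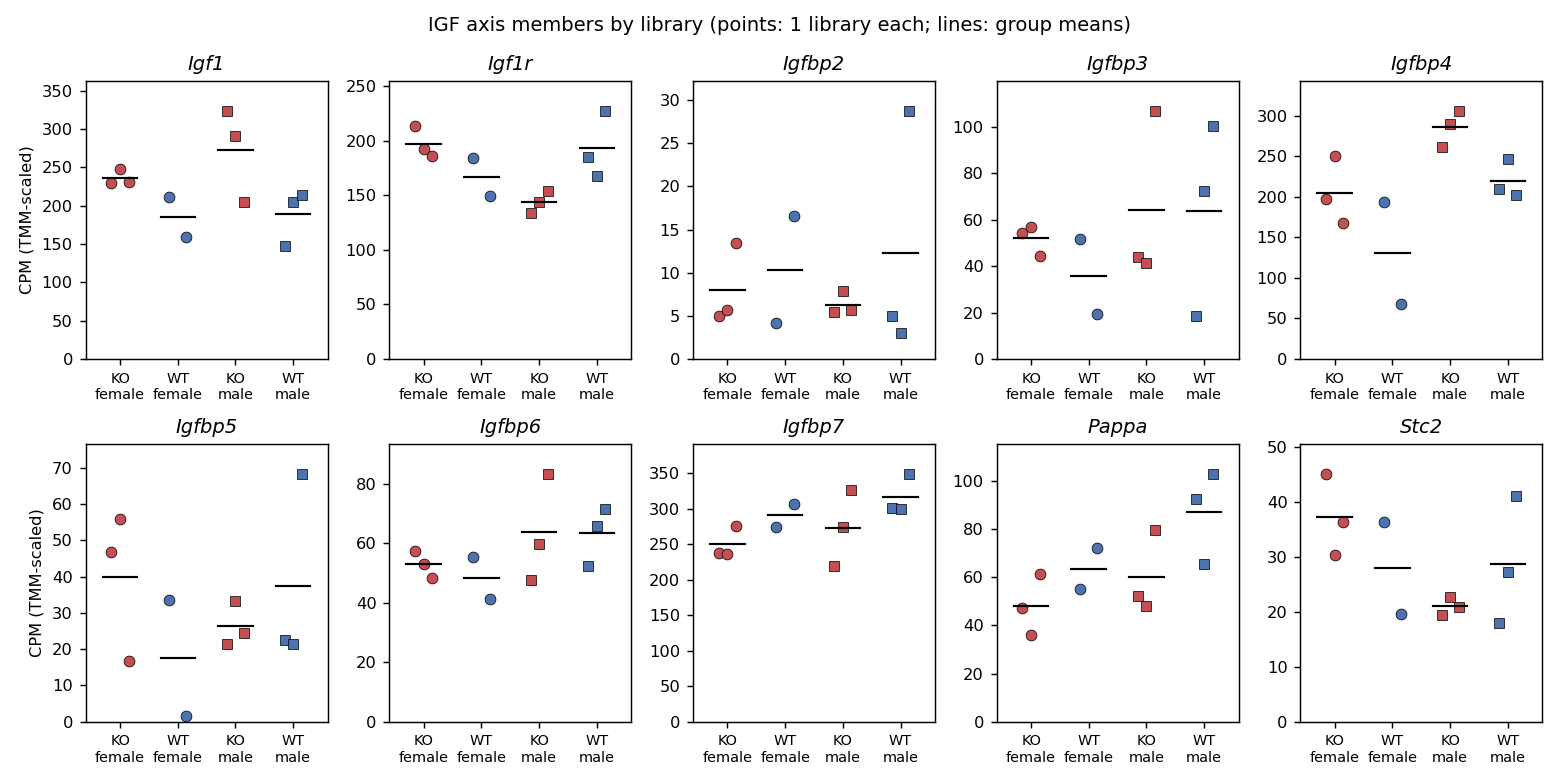
CPM of each member (y axis, TMM-scaled, from 0) in KO females, WT females, KO males and WT males. Points are libraries and lines group means. Igf1r lies higher in KO than WT females and lower in KO than WT males, and WT female 2 is lowest for Igfbp5 at 1.65 CPM.

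The ligand Igf1 (ENSMUSG00000020053) was at 229.7, 248 and 231 CPM in KO females, against 212 and 159 CPM in WT females. In males it was at 324, 290.2 and 204 CPM in KO, against 148, 205 and 214 CPM in WT. All KO females were above both WT females, whereas KO male 3 lay inside the WT male range. Igf1 averaged 254 ± 44.2 CPM over the KO libraries (SD, n = 6) and 188 ± 31.5 CPM over the WT libraries (SD, n = 5). The log2 difference was 0.45 (SE 0.14, edgeR adjusted p = 0.178). It was 0.35 (SE 0.21, edgeR adjusted p = 0.668) in females and 0.53 (SE 0.19, edgeR adjusted p = 0.136) in males. The female value was 0.15 without WT female 2 and 0.57 without WT female 1, and the male value ranged from 0.38 without WT male 1 to 0.69 without KO male 3. The sign was positive in each of the 19 alternatives over both sexes, with adjusted p of 0.0313 to 0.396. Limma-voom gave the lowest of these. Its library weights were read from the model of the 4 genotype-by-sex means, not from the fit over both sexes. There WT male 2 had 2.39 and each remaining WT library 0.277 to 0.618. The KO libraries had 0.722 (KO male 3) to 4.48 (KO male 2). KO males 1 and 2, highest for Igf1, also had the highest leukocyte marker sums, 12791 and 11300.3 CPM, against 5295 to 8246 CPM in the other 9 libraries, and the part of these markers in the Igf1 result was not tested. Without KO male 3, Igf1 was the 1 of 10 members whose KO and WT libraries did not overlap, against 2.27% of entries in that setting.

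Igf1r (ENSMUSG00000005533), the receptor, lay on opposite sides of WT in the sexes, and the difference did not pass adjustment. In females it was at 213, 193 and 186 CPM in KO, against 184 and 149.6 CPM in WT, so that every KO female was above both WT females. In males it was at 134, 144 and 154 CPM in KO, against 185, 168 and 227 CPM in WT, so that every KO male was below every WT male. Non-overlap in both sexes with opposite directions occurred in 1.81% of entries tested. The log2 difference was −0.42 in males (SE 0.13, edgeR adjusted p = 0.0936) and 0.24 in females (SE 0.15, edgeR adjusted p = 0.668). The difference between these effects, males minus females, was −0.66 (SE 0.19, edgeR unadjusted p = 0.00625, adjusted p = 0.304). DESeq2 called Igf1r lower in males (adjusted p = 0.0395), within a range of 0.0366 to 0.301 over the 18 alternatives. The direction in each sex was kept in all 18. Without WT female 2 the female value was 0.087 and the difference −0.50. Without WT female 1 the difference was −0.82 (edgeR adjusted p = 0.0362, in a range of 0.0362 to 0.698 over 18 alternatives), which rests on WT female 2 as the only WT female. In that setting 10.9% of all entries were called for this difference, against 0% with all libraries.

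**Figure D2:**
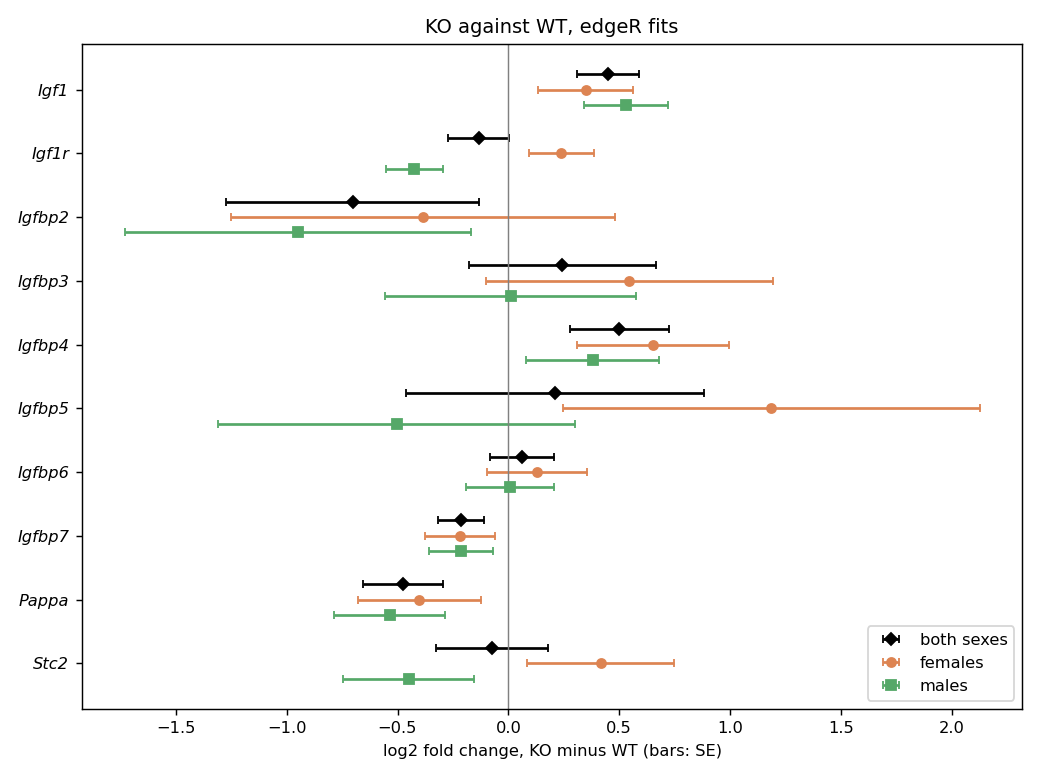
Log2 fold change of KO over WT (x axis) for each member over both sexes, in females and in males, with SE bars from edgeR. Igf1r, Stc2 and Igfbp5 have positive values in females and negative ones in males, and the Igfbp5 and Igfbp2 bars are the widest.

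Among the binding proteins Igfbp4 (ENSMUSG00000017493), which inhibits IGF action until PAPP-A cleaves it, was at 197, 251 and 167 CPM in KO females, against 194 and 67.7 CPM in WT females. Male libraries had 261, 289.7 and 306 CPM in KO, against 209, 246 and 202 CPM in WT. Each KO male was above each WT male, while KO female 3 lay between the WT females. Over both sexes the log2 difference was 0.50 (SE 0.22, edgeR adjusted p = 0.280). It went down to 0.29 without WT female 2 and up to 0.74 without WT female 1. In females it was 0.65 (SE 0.34, edgeR adjusted p = 0.668) with both WT females, 0.073 without WT female 2 and 1.60 without WT female 1 (edgeR adjusted p = 0.00449, in a range of 0.00449 to 1 over 18 alternatives). Without WT female 1, 16% of all entries were called in females. The male value was 0.38 (SE 0.30, edgeR adjusted p = 0.487).

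Igfbp7 (ENSMUSG00000036256), a related secreted protein that binds IGFs weakly, was the most abundant member per length. It was at 238, 236 and 276 CPM in KO females, against 275 and 307 CPM in WT females. Male libraries had 219.6, 274 and 327 CPM in KO, against 301, 300.3 and 349.6 CPM in WT. The groups overlapped in both sexes through KO female 3 and KO male 3. The log2 difference was −0.22 (SE 0.10, edgeR adjusted p = 0.310), and −0.22 (females) and −0.21 (males) within the sexes. The male value was −0.078 without KO male 1 and −0.37 without KO male 3, and the female value was −0.14 without WT female 2. Its exons overlap Polr2b on the opposite strand, which had at most 3382 counts in any library, whereas Igfbp7 had at least 7535. How reads in the overlap were counted is not known, so Igfbp7 counts are uncertain.

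Igfbp5 (ENSMUSG00000026185), which binds matrix as well as IGF and lies next to Igfbp2, spread most. It was at 46.7, 55.8 and 16.9 CPM in KO females, against 33.6 and 1.65 CPM in WT females. The males had 21.5, 33.2 and 24.4 CPM in KO, against 22.5, 21.3 and 68.4 CPM in WT. Its highest library was 41.4 times its lowest, WT female 2, where only 66 counts fell on it. The log2 difference over both sexes was 0.21 (SE 0.67, edgeR adjusted p = 0.899), and −0.27 without WT female 2. In females it was 1.19 (SE 0.94, edgeR adjusted p = 0.684) with both WT females, 0.24 without WT female 2 and 4.59 without WT female 1 (edgeR adjusted p = 0.0191, in a range of 0.0191 to 1 over 18 alternatives), the setting with 16% of entries called. The male value was −0.50 (SE 0.80, edgeR adjusted p = 0.754), and 0.26 without WT male 3.

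Igfbp2 (ENSMUSG00000039323), an IGF carrier with a preference for IGF2, had the lowest mean level per length. It was at 4.94, 5.71 and 13.5 CPM in KO females, against 4.15 and 16.6 CPM in WT females. Males had 5.41, 7.86 and 5.67 CPM in KO, against 4.95, 2.99 and 28.8 CPM in WT. Of the 5 WT libraries, 3 were at or below 4.95 CPM and the other two, WT female 2 and WT male 3, were above all KO libraries. The log2 difference was −0.70 (SE 0.57, edgeR adjusted p = 0.544), 0.11 without WT male 3, and 0.81 with limma-voom. WT male 3 was also the highest library for Igfbp5 and for the 5 mesothelial markers. Their sum was 145 CPM there, 10.6 to 105 CPM in KO and 19.9 to 145 CPM in WT. Other libraries did not follow this match. The sum was 105 CPM in KO female 1, the KO library lowest for Igfbp2, and 85.0 CPM in WT male 2, the WT library lowest for it. In WT female 2, with Igfbp2 at 16.6 CPM, the sum was 35.4 CPM. The part of mesothelial cells was not tested. The 5 mesothelial markers were all tested, with fold changes that were all negative, 0 called, and none at 0 in every library.

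Igfbp3 (ENSMUSG00000020427), the main IGF carrier in blood, was at 54.2, 57.1 and 44.5 CPM in KO females, against 51.8 and 19.5 CPM in WT females. Among males it had 44.1, 41.4 and 107 CPM in KO, against 18.4, 72.2 and 101 CPM in WT. The KO values lay close together apart from KO male 3, and the WT values spread from 18.4 to 101 CPM, so the groups overlapped. The log2 difference was 0.24 (SE 0.42, edgeR adjusted p = 0.799), and −0.031 without KO male 3. Igfbp6 (ENSMUSG00000023046), which prefers IGF2, spanned 47.8 to 83.6 CPM in KO (median 55.3) and 41.4 to 71.7 CPM in WT (median 55.6), with a log2 difference of 0.061 (SE 0.15, edgeR adjusted p = 0.858).

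Pappa (ENSMUSG00000028370), the protease that cleaves IGFBP4, was at 47.3, 35.9 and 61.4 CPM in KO females, against 54.95 and 72.1 CPM in WT females. In males it was at 52.2, 48.2 and 79.7 CPM in KO, against 92.3, 65.6 and 103 CPM in WT. KO female 3 and KO male 3 lay inside the WT ranges of their sex, and the other 4 KO libraries were below every WT library. Pappa averaged 54.1 ± 15.0 CPM over the KO libraries (SD, n = 6) and 77.6 ± 19.7 CPM over the WT libraries (SD, n = 5), a log2 difference of −0.48 (SE 0.18, edgeR adjusted p = 0.224). It was −0.40 (SE 0.28, edgeR adjusted p = 0.668) in females and −0.53 (SE 0.25, edgeR adjusted p = 0.236) in males. The female value was −0.20 without WT female 2 and −0.63 without KO female 3, and the male value was −0.80 without KO male 3. The sign was negative in all 19 alternatives, with adjusted p of 0.111 to 0.449.

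Stc2 (ENSMUSG00000020303), the secreted inhibitor of PAPP-A, was at 45.2, 30.4 and 36.3 CPM in KO females, against 36.4 and 19.6 CPM in WT females. The male values were 19.5, 22.8 and 20.9 CPM in KO, against 17.9, 27.2 and 41.2 CPM in WT. The KO males lay close together and inside the WT male range. The log2 difference was 0.42 in females (SE 0.33, edgeR adjusted p = 0.684) and −0.45 in males (SE 0.29, edgeR adjusted p = 0.397), and −0.072 over both (SE 0.25, edgeR adjusted p = 0.908). The male minus female contrast of these effects was −0.87 (SE 0.44, edgeR adjusted p = 0.430). The female value was 0.027 without WT female 2 and 0.93 without WT female 1, and the male value −0.10 without WT male 3 and −0.71 without WT male 1.

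Substrate and protease can be set side by side per length within a library, a ratio chosen after its values were seen. Igfbp4 over Pappa, both in CPM per kb of exon, was 10.4, 17.4 and 6.81 in KO females, against 8.80 and 2.34 in WT females. In males it was 12.5, 15.0 and 9.59 in KO, against 5.65, 9.38 and 4.90 in WT. Each KO male was above each WT male, and KO female 3 was below WT female 1. Among single entries, 17.3% were higher in KO males without overlap, Igfbp4 itself among them. No such share was computed for ratios, so this separation has no background to be read against. Stc2 over Pappa was 0.559 to 2.04 in KO (median 1.13) and 0.414 to 1.41 in WT (median 0.852).

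Per length, Igfbp7 led the members at 182 to 270.1 CPM per kb in KO and 227 to 289 CPM per kb in WT. It made up 59.1% to 68.3% of the summed level of the 6 binding proteins in KO and 63.1% to 78.8% in WT, where WT female 2 had the highest share. Igfbp6 and Igfbp4 followed, with means over all libraries of 52.1 and 49.2 CPM per kb, and Igfbp6 was the higher of the pair in 7 of 11 libraries. Igf1 (22.6), Igfbp3 (17.7) and Igf1r (10.5) came next in mean CPM per kb. Igf1 was above Igfbp3 in 8 libraries and Igfbp3 above Igf1r in 9. Pappa (5.87), Stc2 (5.58), Igfbp5 (5.24) and Igfbp2 (4.95) had close means and no clear order: Pappa exceeded Stc2 in 6 of 11 libraries, and Stc2 exceeded Igfbp5 in 6. Igf1r varied 1.70-fold across libraries in this measure, close to Igfbp7 at 1.59-fold, and Igfbp2 9.64-fold.

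**Figure D3:**
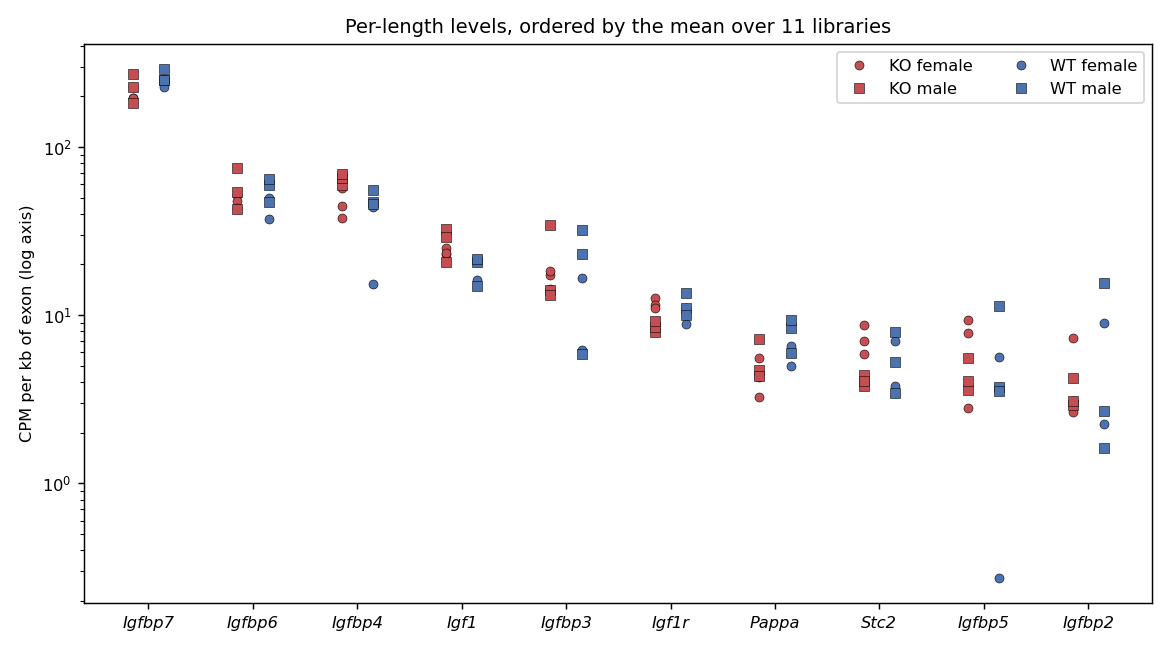
CPM per kb of exon (log y axis) of each member in each library, ordered by the mean over 11 libraries, with KO to the left of WT. The lowest Igfbp7 value is 182 CPM per kb, and Igfbp5 reaches its lowest value of 0.275 in WT female 2.

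Within each sex the count of members whose KO and WT libraries did not overlap was 2 of 10 in males, against 31.4% of entries. Of these Igfbp4 was higher, against 17.3% of entries, and Igf1r lower, against 14.1%. In females it was 2 of 10, against 19.7%, both higher (Igf1 and Igf1r, against 11.3%). Over both sexes it was 0 of 10, against 1.36%. In males edgeR called 0 members, against 1.8% of entries, with 2 at an unadjusted p under 0.05 (22.4% of entries), Igf1 higher (12.4%) and Igf1r lower (10%). DESeq2 called 1, Igf1r, against 10.3%, and limma-voom 2, Igf1r and Igf1, against 19.1%. In females edgeR called 0 against 0.00448%, with 0 at an unadjusted p under 0.05 (6.65% of entries), and DESeq2 (0.0157% of entries) and limma-voom (0%) called 0. For the difference between the sexes edgeR called 0 members, against 0% of entries, with 1, Igf1r, at an unadjusted p under 0.05 (13% of entries). DESeq2 called 0, against 1.11%, and limma-voom 0, against 0%.

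**Figure D4:**
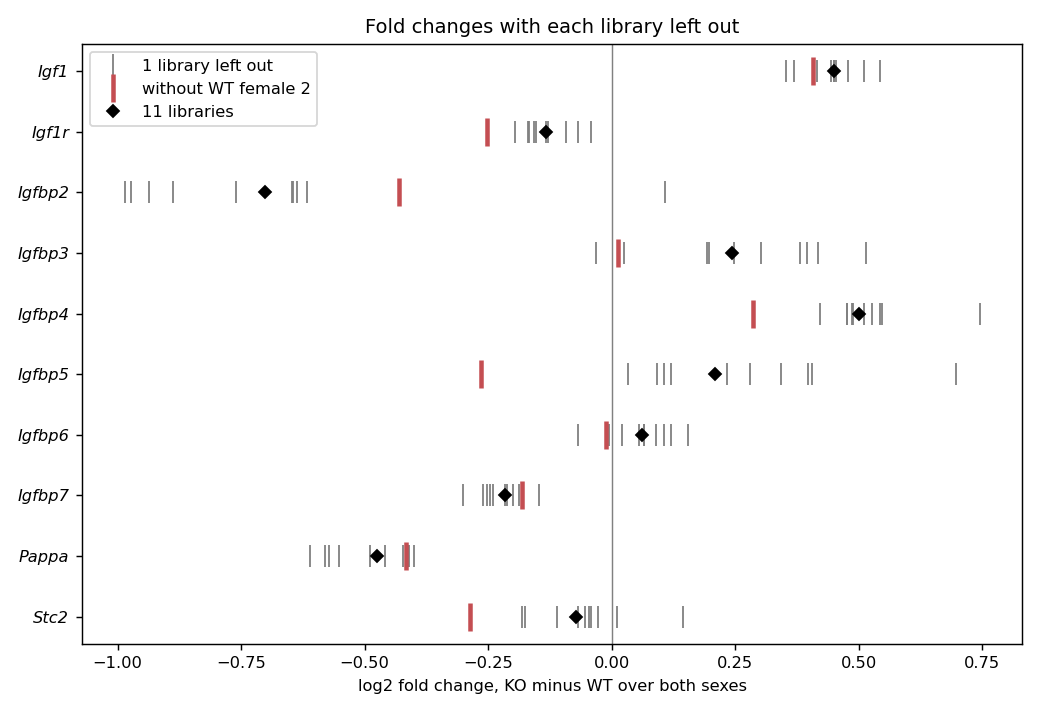
Log2 fold change of KO over WT across both sexes (x axis) with 11 libraries (diamonds) and with each library left out (ticks, red without WT female 2). Igf1, Igf1r, Igfbp4, Pappa and Igfbp7 keep their sign in all 11, and Igfbp5 goes to −0.27 without WT female 2.

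Between males and females, over both genotypes, Igfbp4 had a log2 difference of 0.60 (males minus females, SE 0.22, edgeR adjusted p = 0.116) and Igfbp6 of 0.32 (SE 0.15, edgeR adjusted p = 0.180). Pappa was at 0.38 (SE 0.18, edgeR adjusted p = 0.202) and Stc2 at −0.45 (SE 0.25, edgeR adjusted p = 0.271). With edgeR 0 of 10 members were called against 4.82% of entries, and 2 had an unadjusted p under 0.05, against 27.8%. DESeq2 called 0, against 12.6%, and limma-voom 3 (Igfbp4 higher in males, Igf1r and Stc2 lower), against 26.7%. Without WT female 1, edgeR called Igfbp4 (log2 0.84, adjusted p = 0.0339, in a range of 0.0272 to 0.219 over 18 alternatives), as it did 14.7% of all entries. Without WT female 2 the Igfbp4 value was 0.36. With 1 library left out the others ranged from 0.20 to 0.41 for Igfbp6, 0.26 to 0.49 for Pappa and −0.68 to −0.32 for Stc2.

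Other genes of the pathway were read from a list of 38, of which 33 passed the filter. Over both sexes edgeR called 0 of 33, with 4 higher (10.5% of all entries) and 2 lower (6.64% of all entries) at an unadjusted p under 0.05. DESeq2 called 1 of 33 (Pik3r1), against 3.25% of entries, and limma-voom 7, against 12.5%. Without WT female 1 edgeR called 2 of 33, Pik3r1 among them, against 7.06% of entries. Fold changes were positive for 19 and negative for 14, with a median of 0.060 against −0.0087 over all entries. Pik3r1, the regulatory subunit of PI3-kinase, was at 123 to 155 CPM in KO (median 132) and at 116, 95.1, 101, 114 and 96.8 CPM in WT. Every KO library was above every WT library, the 1 of 33 list genes for which this held, against 1.01% of entries. KO females 1 to 3 had 123, 155 and 138 CPM, and the KO males 131 to 132 CPM. Its log2 difference was 0.36 (SE 0.08, edgeR adjusted p = 0.173), 0.39 in females and 0.34 in males.

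Of 9 genes of the kinase branch, Pik3r1 among them, 8 had a positive fold change and 1 a negative one. Both tested receptors were positive: Igf2r, which clears IGF2, at 0.32 (SE 0.13, edgeR adjusted p = 0.259) and the insulin receptor Insr at 0.031. For Igf2r the log2 difference was 0.59 in males (SE 0.14, edgeR adjusted p = 0.0535) and −0.017 in females. Among proteases, Htra1, which degrades matrix and IGF binding proteins, was at −0.44 (SE 0.19, edgeR adjusted p = 0.267). Pappa2, a relative of Pappa that cleaves IGFBP5, had 93.3 CPM in WT female 2 and 2.48 to 18.1 CPM in the other 10 libraries, with a log2 difference of −0.93 (SE 0.67, edgeR adjusted p = 0.487).

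Of the remaining roles, the growth hormone branch had 3 positive and 2 negative members, led by the transcription factor Stat5b at 0.26 (SE 0.09) and the receptor Ghr at −0.22 (SE 0.14). The sexes had opposite signs for Ghr, −0.53 (SE 0.13) in males and 0.18 (SE 0.14) in females. Adapters had 3 positive and 3 negative, with Gab1, a docking protein, at 0.18 (SE 0.10) and Grb10, which restrains the receptor, at −0.22 (SE 0.21). Grb10 was at −0.59 (SE 0.23) in males and 0.26 (SE 0.26) in females. Of the FOXO factors, which AKT keeps out of the nucleus, Foxo3 was at 0.20 (SE 0.12) and Foxo4 at 0.15 (SE 0.11). Foxo3 was at 0.40 (SE 0.13) in males and −0.051 (SE 0.15) in females. The IGF2 mRNA-binding proteins were all negative over both sexes, with Igf2bp2 at −0.18 (SE 0.12) and Igf2bp1 at −0.37 (SE 0.34). The sexes did not share this sign for Igf2bp1, which was at 0.46 (SE 0.40) in females and −0.96 (SE 0.35) in males. Igf2bp2 was negative in both, at −0.026 (SE 0.18) in females and −0.30 (SE 0.16) in males. The fetal ligand Igf2 was at 0.508 to 2.02 CPM in KO and 0.312 to 3.86 CPM in WT, with its highest value in WT female 2. Igfbp1, the liver-type binding protein, had 0 counts in every library, and Igfals at most 9.

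The genes most like each member were sought among 11921 named genes whose average log2 CPM was 1 or more, by Pearson's r over the 11 libraries after removing the mean of each genotype and sex. This is a description of shared scatter, in which the largest of many values is taken. Igf1 was closest to Vps37c (0.975) and Slc26a11 (0.973), Igf1r to Ddr1 (0.978) and Lrrc42 (0.978), and Igfbp4 to Dclk1 (0.991) and Asic1 (0.984). Igfbp5 was closest to Sufu (0.982) and Etfdh (0.978), Igfbp6 to Dgat1 (0.979) and Igf2bp2 (0.971), and Igfbp7 to Rpl18-ps1 (0.938) and Hoxb3 (0.934). Pappa was closest to Tmem150b (0.974) and Strn3 (0.964), and Stc2 to the glucose transporter Slc2a1 (0.971) and Medag (0.970). Igfbp3 was closest to Zfp608 (0.969) and Evi5l (0.966), and Igfbp2 to Scaf1 (0.939). Among the members themselves the highest values were Igfbp3 with Igfbp6 (0.844), Igfbp4 with Igfbp5 (0.842) and Igf1r with Igfbp5 (0.763), and the lowest Igfbp2 with Igfbp4 (−0.621) and Igf1 with Pappa (−0.600). Removing group means leaves the 2 WT females as mirror images. These were far apart for Igfbp4 (194 and 67.7 CPM) and Igfbp5 (33.6 and 1.65 CPM). How far the r values of these genes rest on WT female 2 was not tested.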

How the data were processed

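RNA of primary lung fibroblasts was sequenced after ribosomal depletion, per the labels' protocols. The labels number the libraries by sex but do not say whether they came from separate animals or cultures, so p-values measure the spread between these libraries, which may be technical. The authors deposited raw whole-number counts per gene and repeat subfamily, with no normalization. The submitters' processing notes name Trim Galore, STAR and the build GRCm39. How reads were counted (program, strand, multiple matches, annotation) is not given in the sources used here. Overlapping and antisense genes therefore cannot be separated.

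Each count file held 58223 entries, of which 56980 were genes; GENCODE vM21 gave 52073 of these a symbol, and 1 row matched each of the 10 members. Exon lengths came from the same annotation, which is of the older GRCm38 build and was used for names and lengths. CPM used TMM-scaled library sizes over all entries (factors 0.963 to 1.03). A count of 3, taken as the limit that a count of 0 allows, equals 0.0609 to 0.110 CPM across libraries and reflects counting error alone, because without molecular identifiers reads need not be separate molecules.

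The test on counts was edgeR's quasi-likelihood test (version 4.0.16, filterByExpr with a minimum count of 10, R 4.3.3) over 22298 entries, with Benjamini-Hochberg adjustment over all of them and a threshold of 0.05. A model with sex and genotype gave the contrasts over both sexes and of males with females; a model of the 4 genotype-by-sex means gave the contrasts in each sex and their difference. SE was the fold change divided by the square root of F. Scripts were tested on simulated data: of 100 genes changed by 1 log2 unit, 89.0% were recovered over both sexes, 74.0% in males and 60.0% in females, with 7, 8 and 13 false calls among 21922 genes fitted. The simulated counts were independent, with no sex effect and no library that stood apart. These shares therefore check the scripts and do not give the power for the members. Alternatives were DESeq2 1.42.0, limma 3.58.1 (voom with sample quality weights), RLE scaling, no filter, genes only, robust dispersion, no sex term, a replicate block and each library left out.

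The members and the lists of pathway genes and markers were chosen with earlier results of these data known. The text names all members, the pathway genes past the threshold over both sexes or otherwise the 2 with the smallest p in each role, and for each member the 2 genes most alike; some of these are not reported here. Libraries of a group differed by more than sampling noise (chi-square per degree of freedom 12.0 to 144, entries of 20 or more counts per pair).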

Additional observations from a re-analysis of the deposited data

Results flagged for a closer look

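Igf1r is given here because all KO females lay above all WT females while all KO males lay below all WT males. Such opposite non-overlap occurred in 1.81% of entries tested. The KO effect in males minus females was −0.66 on the log2 scale (edgeR unadjusted p = 0.00625, adjusted p = 0.304), so the difference did not pass adjustment. For this difference 13% of entries had an edgeR unadjusted p under 0.05. Without WT female 2 the Igf1r difference was −0.50.

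Among the 20 sets of KO or WT values examined for a library far from the rest, 2 had one. Chance gives 5% only for independent sets, each from a single population. These sets pool the sexes and share the same libraries, so their count cannot be compared with that rate. Igfbp3 in KO male 3 was at 107 CPM, against 57.1 CPM in the next KO library, a gap of 0.662 of the log2 range. Igfbp4 in WT female 2 was at 67.7 CPM, against 194 CPM in the next WT library, a gap of 0.814 of the log2 range.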

How the results depend on the processing

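Over both sexes, 177 of 190 member values under an alternative kept their direction and side of the threshold, and 12 turned sign. Limma-voom gave 0.81 for Igfbp2, −0.30 for Igfbp3 and −0.095 for Igfbp6, and dropping sex gave 0.036 for Stc2; the cause was not tested. With 1 library left out, values ranged from −0.99 to 0.11 for Igfbp2, −0.031 to 0.51 for Igfbp3, −0.27 to 0.70 for Igfbp5, −0.067 to 0.15 for Igfbp6 and −0.29 to 0.14 for Stc2. Members called numbered 0 over both sexes with edgeR and 1 with limma-voom. In males they were 0, with 1 by DESeq2 and 2 by limma-voom, and between males and females 0, with 3 by limma-voom. With 1 library left out the counts were 0 to 2 in females, 0 to 3 for the difference between the sexes and 0 to 1 between males and females; the highest counts all came without WT female 1, where 16%, 10.9% and 14.7% of all entries were called, and when the lone WT female is assumed to vary like the other groups. Pathway genes called were 0, with 1 by DESeq2, 7 by limma-voom and 0 to 2 with 1 library left out (2 without WT female 1). Members without overlap over both sexes numbered 0 to 1 with 1 library left out. Correlations of deviations between KO and WT libraries were −0.145 to 0.0734 for the same replicate number and −0.238 to 0.191 for unlike numbers. The 2 WT females mirror each other in these deviations, so the values cannot decide whether the numbers pair libraries. With the numbers as a replicate block 0 members were called in any contrast. Of all 22298 entries the block called 21 between males and females and 0 in each other contrast, so not Cgas either. Over all entries the male calls numbered 402, 7 with RLE scaling, 0 with the block and 0 to 2181 with 1 library left out, so the 1.8% printed for males depends on these choices. Over both sexes 1 entry was called, and 1616 (7.06%) without WT female 1. The lowest count of a member in a library was 66.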
